A study of Mus musculus with 46 samples.

Results

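The early response described here is that of the experiment labelled Ics, 3 h after stimulation against no stimulation. Its members were taken by their titles: 4 libraries titled as unstimulated (0 h) and 4 titled as stimulated with Ics for 3 h, 8 of the 46 mouse libraries of the series. The series concerns intravenous immunoglobulin (IVIg), a pooled antibody preparation, in mice with a form of mucous membrane pemphigoid, in which antibodies against laminin 332 lead to blisters. The labels do not expand the term Ics, and they give neither a cell type, a mouse strain, a genotype, an age nor a dose for these libraries. Their extraction text, written for the whole series, speaks of murine neutrophils and monocytes derived from bone marrow, or of whole blood. Both groups share the source label Ics and differ in the label of time, and titles m1 to m4 recur at each time. The treatment field reads IVIG in all 4 unstimulated libraries, while it reads PBS in 3 and a time in 1 of the 3 h libraries, so it does not follow the titles and was not used. No unstimulated library at 3 h was analysed here, so 3 h of culture and 3 h of stimulation cannot be told apart, nor can either be told apart from what the treatment field may record.

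Myeloid cells met by a stimulus pass through a known order of transcription. Regulators and signalling enzymes already in the cell switch on early genes, which code for further transcription factors, for brakes on the signalling that induced them, for receptors and for secreted factors. Messages with short lives disappear in the same hours when they are no longer made. In neutrophils, which leave the marrow with most of their granule proteins already synthesised, this change of messages is a main route by which stimulated cells take on other functions.

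Values are normalised read counts (CPM, scaled to the library's total with TMM factors), given for the libraries m1 to m4 in that order or as mean ± SD (n = 4). Changes are log2 of 3 h over 0 h, given ± the standard error (SE) of the fitted change. Genes are said to have risen or fallen where the Benjamini-Hochberg adjusted p of edgeR's quasi-likelihood F test was under 0.05 over all 14996 genes tested. The libraries held 24827887 to 28326821 estimated counts at 0 h and 25372706 to 28365257 at 3 h. From 16492 to 17063 genes had at least 5 counts at 0 h and 15742 to 16018 at 3 h, so fewer genes were seen at 3 h. The 10 highest genes took 11.9 to 12.8% of counts at 0 h and 9.36 to 10.9% at 3 h, and mitochondrial genes 0.529 to 0.637% and 0.451 to 0.538%. Neutrophil markers summed to 95316 to 101373 CPM at 0 h and to 83830.5 to 99249 CPM at 3 h, monocyte and macrophage markers to 12912 to 13947 and 8837 to 10724 CPM. Nearly all of the monocyte and macrophage sum was Lyz2, at 12827 ± 456 CPM at 0 h and 8866 ± 785 CPM at 3 h. That sum therefore follows 1 gene, while 5 of 11 tested members of the list rose and 6 fell. The first principal component held 77.9% of the variance and parted the times, the second 4.77%. Nothing in the labels ties a library to an animal or culture of its own, and p-values therefore reflect the spread among these libraries, which may be technical.

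The response was broad and ran in both directions, with 54.4% of the genes tested called. At 3 h, 4034 genes (26.9% of those tested) had risen and 4129 (27.5%) had fallen. At least 2-fold, 1346 rose (8.98%) and 1431 fell (9.54%). At least 4-fold, 425 rose (2.83%) and 298 fell (1.99%). All 4 libraries at 3 h lay above all 4 at 0 h for 3716 genes (24.8%), and below them for 3738 (24.9%). The balance of the directions rests on the scaling: 49.4% of the calls were rises with TMM factors, 39.5% (3343 rises and 5111 falls) with upper quartile factors and 29.8% (2693 and 6351) with library totals alone. The median change of all genes moved with it from -0.06 to -0.17 and -0.30, so changes below are relative to a zero that depends on the scaling. None of these scalings can show a change in the amount of mRNA per cell, so the range does not bound the error of the zero. The named changes below of at least 1 on the log2 scale are larger than the shift between these scalings.

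**Figure D1:**
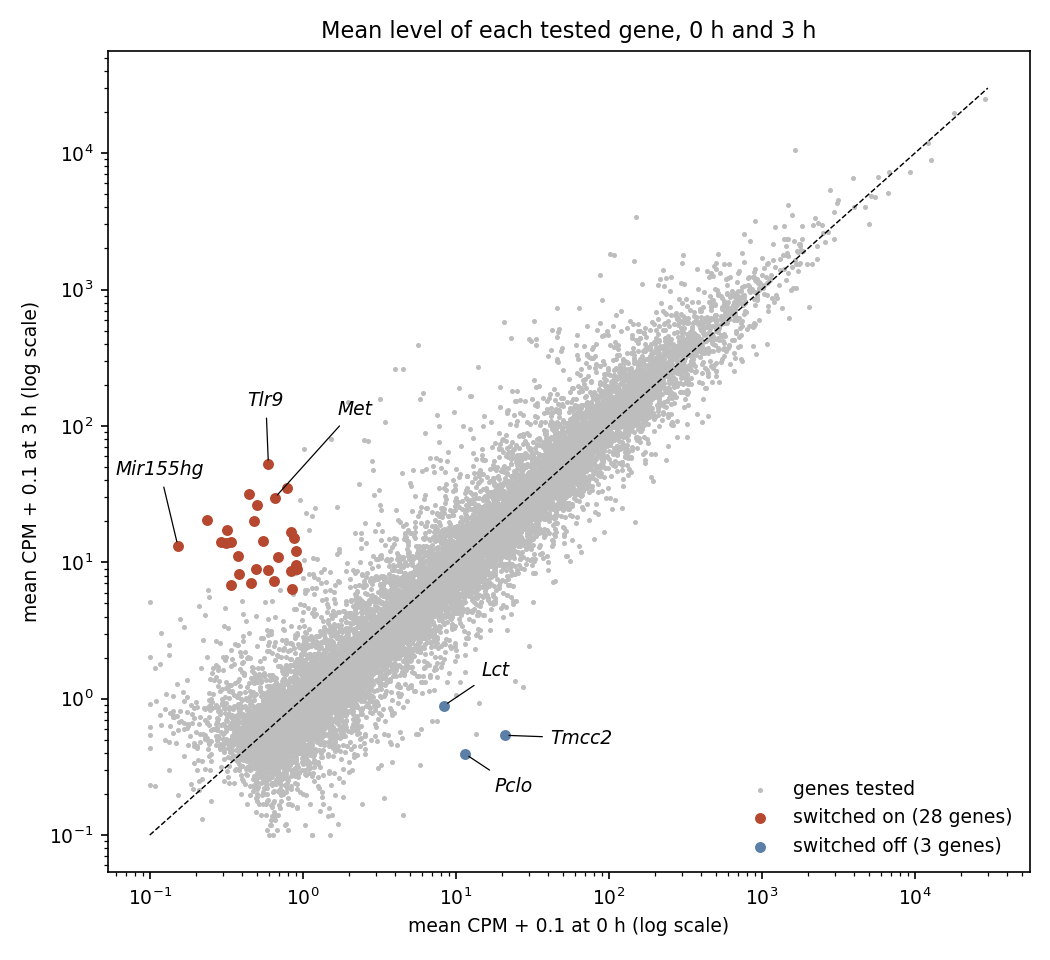
Mean CPM of each tested gene at 0 h (x axis) and at 3 h (y axis), both on log scales with 0.1 CPM added; grey points are genes, coloured points those that went from under 1 CPM in every library to at least 5 CPM in every library (on, 28 genes) or the reverse (off, 3 genes), and the diagonal marks equal levels. The genes switched on lie far above the diagonal, with Tlr9 the highest of them at 52.4 CPM at 3 h, and Tmcc2, Pclo and Lct lie below it.

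A level rule picked out genes that were nearly silent in one group and present in the other. It asked for under 1 CPM in all 4 libraries of one time and at least 5 CPM in all 4 of the other. By it 28 genes (0.187% of those tested) were switched on and 3 (0.02%) were switched off; without unstimulated library m4 the latter count was 5. Besides Tlr9, an endosomal sensor of DNA, and Cd83, a surface protein of activated antigen-presenting cells, the switched-on genes included Mfsd7a, a transporter of the major facilitator family, the protein phosphatase gene Ppm1n, the scaffold gene Niban2, and Smpdl3b, a membrane-anchored phosphodiesterase. Mfsd7a lay at 0.444 to 0.884 CPM at 0 h and at 24.9 to 41.6 CPM at 3 h. Ppm1n lay at 0.172 to 0.568 and at 22.6 to 31.1 CPM, and Smpdl3b at 0.126 to 0.377 and at 10.1 to 16.7 CPM. The groups do not overlap for any of the 28, since the rule sets them apart.

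The largest change among them was that of a non-coding gene. Mir155hg (chr16:84703167-84715245, GRCm38, plus strand) is annotated as a long intergenic RNA and holds the hairpin of miR-155, a microRNA induced in activated macrophages and lymphocytes that restrains messages of signalling inhibitors. Its estimated counts were 0, 2, 2 and 2 in the unstimulated libraries and 370, 334, 385 and 236 in the 3 h libraries. Over each group that is 6 counts against 1325, a ratio after scaling of 255, with a 95% exact interval of 117 to 696 that covers counting error only. At 6 h it was at 0.791 ± 0.421 CPM (SD, n = 4), lower than the 13.1 ± 3.10 CPM of 3 h by its mean and above the 0.0526 ± 0.0352 CPM of 0 h. The host transcript alone was measured, not the mature microRNAs. They are shown because their seeds, bases 2 to 8 in capitals, are what target messages pair with, and the 5p and 3p arms do not share one:
miR-155-5p: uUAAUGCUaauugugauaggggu
miR-155-3p: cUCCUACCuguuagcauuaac
Both are from RefSeq on GRCm38.p6, on the plus strand at chr16:84714143-84714165 and chr16:84714182-84714202.

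The regulators of transcription leaned upward. Over 6 lists (zinc finger, helix-loop-helix, leucine zipper, lineage, nuclear receptor and chromatin regulators), 143 of 148 genes were tested, 72 of them rose (50.3%) and 33 fell (23.1%), against 26.9% and 27.5% of all genes. Their median change was 0.32, that of all genes -0.06. The lists here and below were chosen with earlier results of these data known. Their shares therefore describe the lists and are no test of a class of genes. The shares of all genes, 26.9% and 27.5%, are the measure for each list below.

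Genes of repressors had the largest rises among the zinc finger and ETS regulators, of which 12 of 24 tested rose and 4 fell (median 0.21). Prdm1, which encodes the repressor Blimp-1, was at 1.33, 1.502, 0.789 and 1.21 CPM at 0 h and at 6.94, 9.59, 10.2 and 6.83 CPM at 3 h, a change of 2.79 ± 0.22 (SE; adjusted p = 6.24e-08). Zeb2, a repressor needed in several myeloid lineages, was at 23.2, 24.5, 26.6 and 22.9 and then at 151, 131, 198 and 124 CPM (2.64 ± 0.14). For both, every 3 h library lay above every unstimulated one. Klf10, a gene induced by TGF-beta, rose by 2.44 ± 0.15, and Bcl6, a repressor of inflammatory genes, by 1.52 ± 0.06. In the other direction, Zbtb16, which encodes the zinc finger protein PLZF, was at 8.27, 8.54, 8.34 and 10.4 CPM at 0 h and at 0.891, 1.10, 1.99 and 1.78 CPM at 3 h, a change of -2.63 ± 0.24. Klf2, a regulator of leukocyte quiescence, went from 409 ± 55.6 to 245 ± 19.5 CPM (-0.74 ± 0.09).

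Among the helix-loop-helix and MYC network genes 13 of 25 tested rose and 4 fell (median 0.53). Bhlhe40, a repressor linked to cytokine production, was at 41.7, 66.5, 80.6 and 57.1 CPM at 0 h and at 255, 224, 299 and 196 CPM at 3 h (1.99 ± 0.19). Hif1a, the oxygen-regulated subunit of HIF-1, rose by 1.49 ± 0.09, and Tfe3, a regulator of lysosomal genes, by 1.52 ± 0.08. The MYC antagonist Mxd1 was abundant already, at 2235 ± 137 CPM, and reached 3345 ± 197 CPM.

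The leucine zipper genes outside FOS, JUN and ATF3 split: 10 of 21 tested rose, 7 fell and the median was 0.23. Of the small Maf genes, whose proteins pair with NRF2 and other partners, Maff was at 6.18, 6.69, 8.30 and 8.24 CPM at 0 h and at 57.7, 53.8, 71.7 and 48.3 CPM at 3 h (2.98 ± 0.19), while Mafg rose by 1.404 ± 0.07 from a higher level of 319 ± 6.13 CPM. Atf5, a factor of the stress response, rose by 2.52 ± 0.12, and Cebpa and Cebpg by 1.12 ± 0.08 and 1.18 ± 0.09. Nfil3 fell by 0.91 ± 0.07 and Cebpe, a factor of granulocyte maturation, fell by 0.57 ± 0.09.

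The interferon regulatory factors moved in opposite directions. Irf5, which drives inflammatory cytokine genes, was at 19.6, 25.0, 22.6 and 19.9 CPM at 0 h and at 135, 127, 146 and 119 CPM at 3 h (2.60 ± 0.11). Irf4 was at 4.86, 8.78, 10.8 and 4.89 and then at 2.52, 1.33, 1.56 and 0.849 CPM (-2.22 ± 0.36), and the groups did not overlap for either gene. Irf8 fell by 1.70 ± 0.45, with libraries at 0.662 to 2.08 CPM at 0 h and 0.196 to 0.695 CPM at 3 h, so its groups overlap. Stat2, which carries interferon signals, fell, with a change of -1.26 ± 0.11, and Rbpj, the DNA-binding partner of Notch, rose by 1.69 ± 0.10. Over the whole list of IRF, STAT and lineage regulators 12 of 29 tested rose and 11 fell (median 0.21). B cell markers summed to 482 to 1406 CPM at 0 h and 263 to 965 CPM at 3 h, with Pax5, Vpreb1 and Igll1 under 0.1 CPM at 0 h, and dendritic cell markers to 70.5 to 90.2 and 319 to 545 CPM. Itgax made up most of the latter, at 391 ± 95.7 CPM at 3 h. Most of the B cell sum was Ighm and Jchain. Ighm was at 461 ± 379 CPM at 0 h and 300 ± 290 CPM at 3 h and did not pass. It was highest in library m2 at both times, at 1029 and 734 CPM. Jchain fell from 323 ± 78.1 to 171 ± 41.5 CPM. The part of B cells and dendritic cells in the levels of Irf4 and Irf8 was not tested. In bulk samples, fewer cells of a type and less RNA per cell cannot be told apart.

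Among nuclear receptors outside NR4A 10 of 16 tested rose and 2 fell (median 0.45), led by Rxra, the common partner of many of them, at 14.1, 15.4, 16.2 and 16.5 CPM and then 50.3, 59.9, 54.8 and 61.1 CPM (1.86 ± 0.09). Of the chromatin regulators 15 of 28 tested rose and 5 fell (median 0.36). Kdm2b, a histone demethylase of a Polycomb complex, was at 5.74, 7.65, 4.70 and 7.17 CPM at 0 h and at 57.8, 38.7, 52.7 and 42.3 CPM at 3 h (2.92 ± 0.17). Arid5b rose by 2.11 ± 0.13, the DNA demethylating enzyme Tet3 by 1.27 ± 0.09 and the demethylase Kdm6b by 1.03 ± 0.07, while the deacetylase Hdac7 fell by 1.31 ± 0.15.

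**Figure D2:**
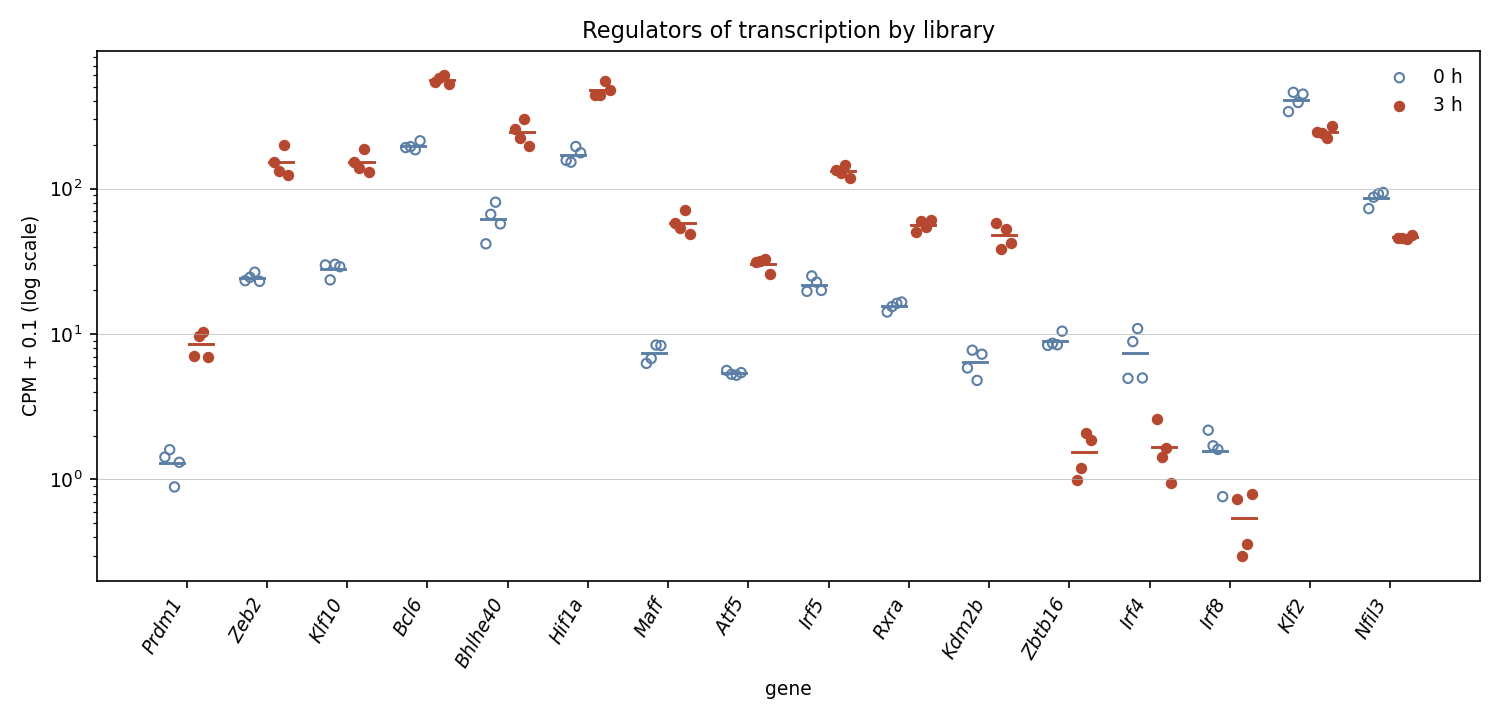
CPM of 16 regulators in each library, on a log scale with 0.1 CPM added; each point is 1 library, open circles 0 h and filled circles 3 h (n = 4 each), and short bars mark group means. The 11 genes on the left rose, with Prdm1 starting lowest at 1.21 CPM, and the 5 on the right fell.

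Several brakes on signalling rose steeply while others fell. Over 4 lists of feedback and early response genes, 44 of 87 tested rose (50.6%) and 20 fell (23%), with a median of 0.37. Of all tested genes 26.9% rose and 27.5% fell. Dusp16 (chr6:134715468-134792625, GRCm38, minus strand), a phosphatase that acts on the kinases JNK and p38, was at 4.23, 4.64, 6.62 and 8.38 CPM at 0 h and at 177, 177, 192 and 154 CPM at 3 h, a change of 4.88 ± 0.18 (adjusted p = 3.43e-11). Dusp2, a nuclear phosphatase of ERK, was at 5.93, 7.03, 6.96 and 6.69 and then 58.7, 58.0, 67.1 and 50.2 CPM (3.14 ± 0.12), and Dusp4 rose by 3.36 ± 0.29 from 0.802 ± 0.389 CPM. Dusp1, the classical stress-induced phosphatase of the family, went the other way, from 507 to 593 CPM at 0 h down to 282 to 320.0 CPM at 3 h (-0.88 ± 0.10), and Dusp6 fell by 0.67 ± 0.10. The pseudokinase gene Trib1 fell by 1.12 ± 0.09, and its relative Trib3 rose by 2.67 ± 0.17. In all 7 of 18 tested genes of this list rose and 4 fell (median 0.27).

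Kinase genes of the same pathways moved as well. Map3k8, which encodes the ERK pathway kinase TPL2, was at 11.9, 9.08, 7.44 and 13.0 CPM at 0 h and at 198, 191, 210.4 and 155 CPM at 3 h (4.19 ± 0.17). Mapkapk2, the p38 effector that stabilises cytokine messages, was at 198, 237, 237 and 228 and then 1463, 1434, 1509 and 1181 CPM (2.64 ± 0.09). Neither gene's groups overlapped. Mapk6 rose by 2.36 ± 0.15 and Map2k3, a p38 activator, by 1.25 ± 0.06, while Stk17b, a kinase of the death-associated family, fell by 1.45 ± 0.06 from 2026 ± 137 CPM. Of 37 tested kinase and phosphoinositide genes 20 rose and 9 fell (median 0.30).

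Members of the Regnase family, nucleases that cut inflammatory messages, diverged. Zc3h12c was at 0.442, 0.341, 0.446 and 0.294 CPM at 0 h and at 22.6, 17.1, 27.2 and 13.3 CPM at 3 h (5.69 ± 0.29). Zc3h12a, which encodes Regnase-1, was already present at 71.8 to 86.4 CPM and reached 269.7 to 359 CPM (1.99 ± 0.11). Zc3h12d fell from 7.45 to 10.4 CPM at 0 h down to 1.43 to 2.74 CPM at 3 h (-2.04 ± 0.20). Zfp36l1, which binds AU-rich elements, rose by 1.78 ± 0.12, and the Roquin genes Rc3h1 and Rc3h2 rose by 1.05 ± 0.07 and 1.06 ± 0.07. Of 24 tested genes of mRNA decay and translation 13 rose and 4 fell (median 0.32).

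Of the early response and stress genes 18 of 28 tested rose and 7 fell (median 0.78), and both directions held large changes. Pim2, a kinase that promotes survival, was at 2.27, 2.77, 2.37 and 2.21 CPM at 0 h and at 93.8, 85.3, 75.2 and 60.5 CPM at 3 h (5.03 ± 0.19). Gadd45b, a stress-induced activator of MAP kinase signalling, was at 27.1, 34.5, 32.7 and 34.8 and then 617, 591, 670.3 and 475 CPM (4.19 ± 0.14). Cdkn1a, which encodes the cell cycle inhibitor p21, rose by 2.39 ± 0.12. Nab2, a corepressor of EGR proteins and one of the 20 largest rises, was at 1.17, 0.546, 1.20 and 0.772 and then 66.3, 72.3, 74.7 and 57.1 CPM (6.18 ± 0.23). Other early genes were high before stimulation and lower after it. Per1, a clock gene that also responds to glucocorticoids and cAMP, was at 279.7, 341, 388 and 297 CPM at 0 h and at 76.2, 77.3, 83.4 and 91.8 CPM at 3 h (-1.99 ± 0.10). Csrnp1 fell by 1.61 ± 0.10 from 188 ± 12.9 CPM, Plk3 fell by 1.20 ± 0.13, Tsc22d3, which encodes the glucocorticoid-induced protein GILZ, fell by 1.15 ± 0.07, and Ier2 fell by 0.84 ± 0.06.

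Among regulators of G protein signals 6 of 17 tested rose and 5 fell (median 0.12). Rrad, a small GTPase related to Ras, was at 0.568, 1.20, 0.515 and 1.03 CPM at 0 h and at 12.5, 12.1, 15.9 and 8.68 CPM at 3 h (3.90 ± 0.32). Rgs2, which speeds the shutdown of Gq signals, was among the abundant messages that fell, from 731 to 1033 CPM at 0 h down to 291 to 390.4 CPM at 3 h (-1.45 ± 0.11). Rgs14, Rgs18 and Grk6 fell, with changes of -0.63 ± 0.06, -0.79 ± 0.07 and -0.89 ± 0.06.

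**Figure D3:**
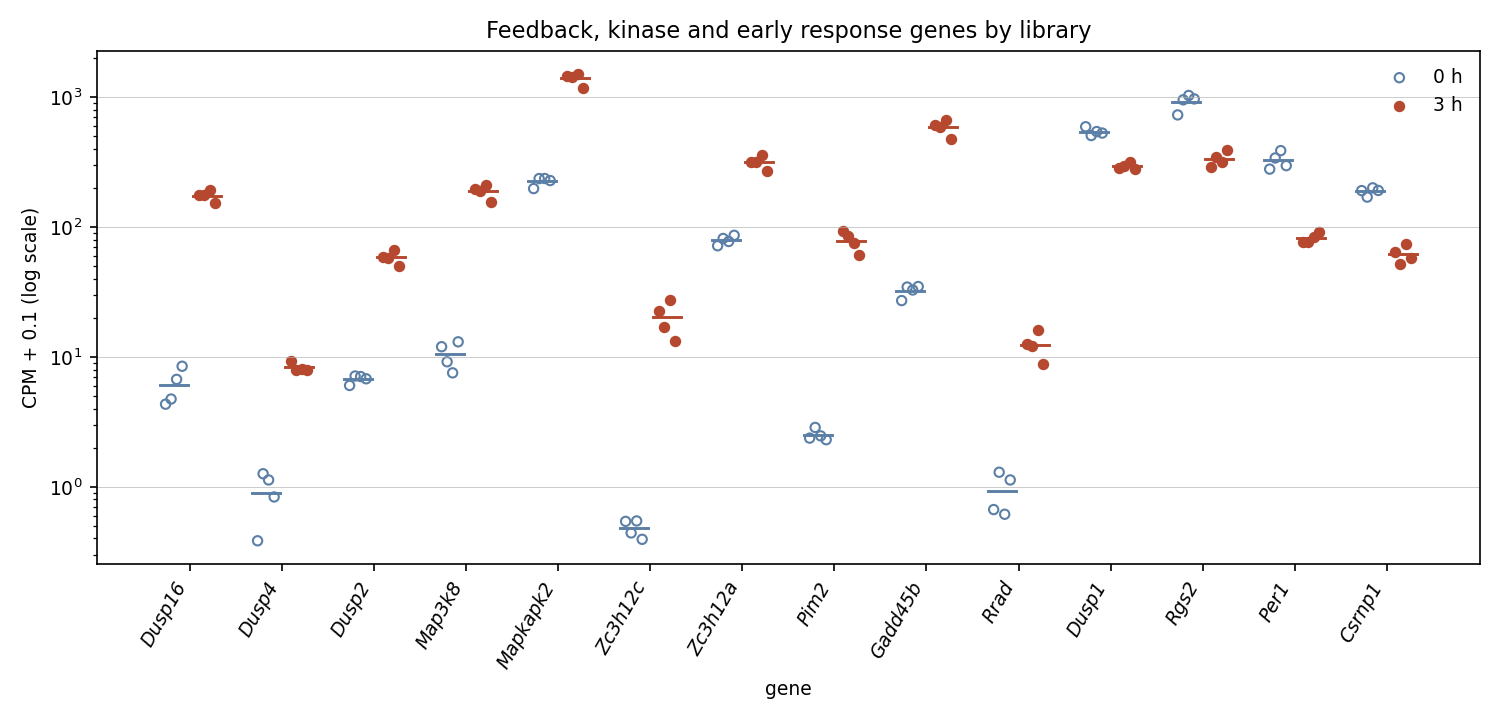
CPM of 14 feedback, kinase and early response genes in each library, on a log scale with 0.1 CPM added; open circles are 0 h and filled circles 3 h (n = 4 each), and short bars mark group means. Dusp16 and Pim2 rise from under 10 CPM, while Dusp1, Rgs2 and Per1 start above 100 CPM and are lower at 3 h.

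Receptor genes were next. Over 6 lists 181 of 205 genes were tested, 88 rose (48.6%) and 48 fell (26.5%), with a median of 0.20. Of all tested genes 26.9% rose and 27.5% fell, so the share fallen is near that of all genes. Of the cytokine and growth factor receptors 22 of 38 tested rose and 9 fell (median 0.32). Met (chr6:17463800-17573980, GRCm38, plus strand), the receptor for hepatocyte growth factor, was at 0.473, 0.512, 0.755 and 0.478 CPM at 0 h and at 29.4, 29.8, 34.1 and 24.8 CPM at 3 h, a change of 5.72 ± 0.19 (adjusted p = 1.33e-11). Its ligand gene Hgf fell by 0.67 ± 0.13, from 20.4 ± 1.61 CPM. Il2rg, the common chain of several interleukin receptors, was at 18.2, 21.4, 18.8 and 19.1 and then 137, 148, 143 and 118 CPM (2.82 ± 0.09). Tgfbr1, a receptor for TGF-beta, rose by 2.11 ± 0.08, as did the gene for its ligand, Tgfb1, by 1.63 ± 0.07. The interferon receptor chains Ifnar1 and Ifngr2 rose by 1.86 ± 0.06 and 1.66 ± 0.07, while Il13ra1 and Notch1 fell, with changes of -0.99 ± 0.15 and -0.53 ± 0.08. The semaphorin Sema4d was abundant at both times, at 278, 316, 318 and 298 CPM at 0 h and 1549.5, 1515, 1737 and 1484 CPM at 3 h (2.38 ± 0.07). Tnfrsf8, which encodes the TNF receptor family member CD30 and was one of the genes switched on, was at 0.221, 0.171, 0.240 and 0.221 and then 13.9, 14.2, 16.4 and 10.7 CPM (5.98 ± 0.22).

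Several receptors for nucleosides and lipid mediators rose among the G protein-coupled receptors outside the chemoattractant receptors, where 20 of 38 tested genes rose and 6 fell (median 0.42). Adora2a (chr10:75316877-75334784, GRCm38, plus strand), an adenosine receptor that raises cAMP in leukocytes, was at 0.347, 0.512, 0.240 and 0 CPM at 0 h and at 14.3, 10.8, 11.3 and 7.99 CPM at 3 h (5.29 ± 0.37). Ptafr, the receptor for platelet-activating factor, was at 191, 239, 249.8 and 235 and then 989.8, 1039, 1209.6 and 1044 CPM (2.23 ± 0.09). Gpr84, a receptor for medium-chain fatty acids, rose by 2.68 ± 0.10, Gpr132 by 2.64 ± 0.16, the nucleotide receptor P2ry2 by 1.57 ± 0.11, and the sphingosine 1-phosphate receptors S1pr1 and S1pr2 by 1.60 ± 0.13 and 1.66 ± 0.20. P2ry1, a receptor for ADP, was at 9.81, 7.92, 7.55 and 8.49 CPM at 0 h and at 3.60, 1.88, 2.25 and 1.93 CPM at 3 h (-1.80 ± 0.19). The proton sensor Gpr65 fell by 0.89 ± 0.08 and the histamine receptor Hrh2 fell by 0.93 ± 0.09. Gpr27, an orphan receptor and one of the 20 largest falls, was at 47.7, 45.6, 48.6 and 35.6 and then 7.27, 8.37, 5.23 and 7.99 CPM (-2.62 ± 0.15).

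The listed inhibitory and paired receptors mostly changed by small steps: 14 of 30 tested rose and 11 fell, but only 1 rose and 3 fell at least 2-fold (median 0.11). The falls of at least 2-fold were Cd244a, a SLAM family receptor, at 24.9, 17.0, 19.97 and 30.3 CPM at 0 h and 4.19, 3.01, 4.54 and 4.55 CPM at 3 h (-2.50 ± 0.18), Siglecg, a sialic acid receptor (-2.28 ± 0.17), and Clec12a, an inhibitory receptor for urate crystals (-1.38 ± 0.06). The rise was Cd200r1, the receptor for CD200, by 1.13 ± 0.09. The list does not hold Havcr2, which encodes the inhibitory receptor TIM-3 and was switched on. Havcr2 was at 0.136 ± 0.0544 CPM at 0 h and at 20.4 ± 3.36 CPM at 3 h (7.18 ± 0.24). Ly9, of the SLAM family too, was at 9.06, 5.77, 5.90 and 7.79 and then 0.779, 1.06, 1.30 and 1.08 CPM (-2.76 ± 0.24), and Cd48, the ligand of CD244, fell by 1.87 ± 0.28 from 2.02 ± 0.787 CPM.

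Scavenger receptors divided, with 8 of 17 tested up and 6 down (median 0.42). Olr1, which encodes the scavenger receptor LOX-1, was at 69.4, 57.2, 71.3 and 47.98 CPM at 0 h and at 447, 446, 577 and 384 CPM at 3 h (2.91 ± 0.15), and Lrp1, a large endocytic receptor, rose by 2.95 ± 0.28. Of 35 tested surface glycoproteins 16 rose and 10 fell (median 0.09), with rises of 2.18 ± 0.15 in Cd69, an activation antigen of lymphocytes and granulocytes, 1.52 ± 0.08 in the tetraspanin Cd9 and 1.33 ± 0.06 in the hyaluronan receptor Cd44. Of 24 tested ion channels and purine-gated channels 9 rose and 6 fell (median -0.0031), led upward by Clcn7 of the lysosome (1.69 ± 0.13) and Orai2, a store-operated calcium channel subunit (1.56 ± 0.05), and downward by P2rx1, an ATP-gated channel (-1.25 ± 0.14).

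Secreted factors were measured less completely, since 63 of 164 listed genes were not tested, 62 of them for low counts. Of the 101 tested, 39 rose (38.6%) and 28 fell (27.7%), against 26.9% and 27.5% of all tested genes, with a median of 0.0055. The share fallen is thus near that of all genes. These 5 lists do not cover all secreted factors. Chemokine and interleukin 1 genes such as Cxcl16 (4.47 ± 0.28) and Il1b (0.53 ± 0.08) rose and were not in them. Among growth factors 9 of 20 tested rose and 7 fell (median 0.44). Spp1, which encodes osteopontin, was at 5.46, 6.11, 6.59 and 6.51 CPM at 0 h and at 95.5, 88.2, 96.1 and 77.1 CPM at 3 h (3.86 ± 0.15). Csf1, the macrophage growth factor, was at 60.02, 55.2, 79.7 and 69.7 and then 238, 242, 332 and 227 CPM (1.97 ± 0.14), and its receptor gene Csf1r rose by 1.65 ± 0.08. Vegfa rose by 1.22 ± 0.13. Flt3l, the dendritic cell growth factor, fell from 12.7 to 14.0 CPM at 0 h down to 4.06 to 4.75 CPM at 3 h (-1.55 ± 0.10), and Btc, an EGF receptor ligand, fell by 2.98 ± 0.35 from 3.49 ± 0.735 CPM. Thbs1, the matrix protein thrombospondin 1, was the most abundant of these messages, at 2206 to 3462 CPM at 0 h and 4718 to 6045 CPM at 3 h (0.95 ± 0.14).

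Of the interleukin 12 family, the subunit genes Il23a, Ebi3 and Il12a rose, while Il27 did not pass. Il23a (chr10:128296139-128298752, GRCm38, minus strand), the specific subunit of interleukin 23, which sustains interleukin 17 responses, was at 0.347, 0.341, 0.446 and 0.294 CPM at 0 h and at 8.13, 5.91, 8.64 and 4.21 CPM at 3 h (4.21 ± 0.27; adjusted p = 7.39e-09). Ebi3, a subunit of interleukins 27 and 35, was at 84.1 to 92.6 and then 259 to 288 CPM (1.64 ± 0.07), and Il12a rose by 3.71 ± 0.31 to 4.07 ± 1.30 CPM. Il27, the partner of Ebi3 in interleukin 27, stood at 4.40 ± 0.477 and 5.47 ± 0.534 CPM and did not pass (adjusted p = 0.0678). Of the lymphotoxins, Ltb was at 98.0 ± 5.24 CPM at 0 h and at 461 ± 28.3 CPM at 3 h (2.24 ± 0.07), and Lta rose to 4.70 ± 1.14 CPM from 0.108 ± 0.0659 CPM. The B cell survival factor Tnfsf13b fell by 0.46 ± 0.11 and Il15 fell by 0.51 ± 0.10. Over the list of interleukin 12 family and lymphocyte-directed cytokines 8 of 15 tested rose and 3 fell (median 0.50).

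Proteases, their inhibitors and plasma-type proteins showed no common direction. Of secreted proteases 8 of 24 tested rose and 7 fell (median 0.031), with Adam17, the sheddase of TNF, at 67.5, 59.996, 63.7 and 67.2 CPM and then 224, 235, 271 and 218 CPM (1.87 ± 0.08), the plasminogen activator Plau up by 1.66 ± 0.11 and Adam8 going from 1440.4 to 1631 CPM at 0 h down to 940.1 to 1029 CPM at 3 h. Of protease inhibitors 6 of 18 tested rose and 3 fell (median 0.0095). Cstb, an inhibitor of cathepsins, rose by 2.20 ± 0.16, and Itih5, a hyaluronan-binding inhibitor, fell from 48.97 to 61.8 CPM at 0 h down to 9.16 to 10.8 CPM at 3 h (-2.44 ± 0.10). Of complement, coagulation and acute phase genes 8 of 24 tested rose and as many fell (median -0.28). Saa3, a serum amyloid A made outside the liver, was switched on, at 0.252, 0.307, 0.137 and 0.0735 CPM at 0 h and 19.4, 12.5, 14.2 and 9.49 CPM at 3 h (6.12 ± 0.32). The coagulation factor gene F10 rose by 2.85 ± 0.15, while Fgl2, a membrane prothrombinase of macrophages, fell from 236 to 297 CPM at 0 h down to 87.1 to 118 CPM at 3 h (-1.36 ± 0.12), C1ra fell by 2.20 ± 0.16 and haptoglobin, Hp, fell by 0.88 ± 0.07.

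**Figure D4:**
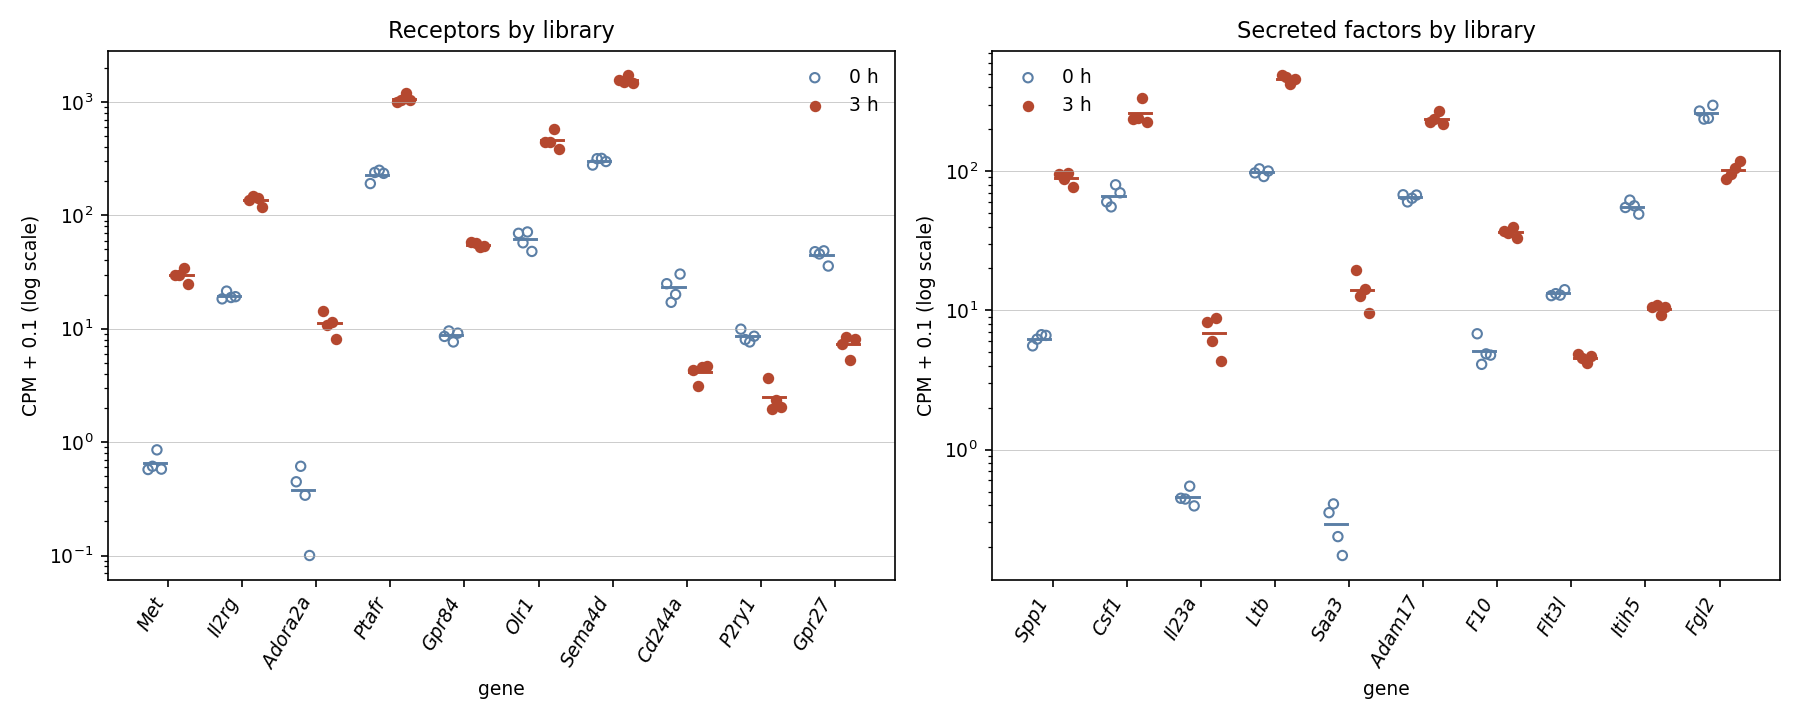
CPM of 10 receptor genes (left) and 10 genes of secreted factors (right) in each library, on log scales with 0.1 CPM added; open circles are 0 h and filled circles 3 h (n = 4 each), and short bars mark group means. Met, Adora2a, Saa3 and Il23a start under 1 CPM in every unstimulated library, while Cd244a, P2ry1, Flt3l and Itih5 are lower in every library at 3 h.

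Inside the cell, the lists differed in direction. Over 9 lists 119 of 269 tested genes rose (44.2%) and 80 fell (29.7%), against 26.9% and 27.5% of all tested genes. Of the survival and apoptosis genes 19 of 31 tested rose and 5 fell (median 0.47). Traf1, an adaptor of TNF receptors, was at 0.820, 2.46, 1.34 and 1.14 CPM at 0 h and at 81.0, 85.5, 85.1 and 69.0 CPM at 3 h (5.80 ± 0.25). Bcl2a1b, a BCL2 family protein that protects activated leukocytes, was at 3.82, 3.07, 3.33 and 3.24 and then 111, 111, 121 and 87.1 CPM (4.99 ± 0.16), and Bcl2a1a and Bcl2a1d rose by 4.37 ± 0.16 and 5.03 ± 0.20. These 3 genes are near-identical copies, so how reads divide among them is uncertain. Genes that promote cell death were divided. Bcl2l11, which encodes BIM, was at 42.1, 47.7, 56.2 and 37.9 CPM at 0 h and at 303, 294, 359.6 and 287 CPM at 3 h (2.76 ± 0.14), the death receptor gene Fas rose by 2.23 ± 0.08, Bax by 1.75 ± 0.12 and Bbc3, which encodes PUMA, by 1.41 ± 0.11. The 5 members that fell were Apaf1 (-0.54 ± 0.08) and Casp9 (-0.58 ± 0.09), which form the apoptosome, Bad (-0.66 ± 0.10) and Bak1 (-0.36 ± 0.08), pro-apoptotic BCL2 family members, and Birc5 (-0.87 ± 0.14), which encodes the inhibitor survivin.

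Of inflammasome and pyroptosis genes 12 of 25 tested rose and 8 fell (median -0.021). Mefv, which encodes pyrin, was at 36.0, 31.6, 33.7 and 38.6 CPM at 0 h and at 204, 191, 216 and 181 CPM at 3 h (2.50 ± 0.11), Casp4, the caspase that senses cytosolic lipopolysaccharide, at 26.0, 25.6, 24.2 and 28.8 and then 129.5, 124, 147 and 97.2 CPM (2.25 ± 0.11). Ripk2, the kinase of NOD receptors, rose by 2.62 ± 0.14 and Ninj1, which ruptures the dying cell's membrane, by 2.23 ± 0.12. Nlrp1a fell by 2.25 ± 0.15, and the adaptor Pycard and the pore-forming Gsdmd changed by -0.68 ± 0.14 and -0.65 ± 0.04.

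Amino acid transport and integrated stress response genes had the highest median of the 40 lists, 1.20, with 16 of 25 tested up and 4 down. Slc7a11, the cystine importer, was at 95.8, 111, 113 and 113 CPM at 0 h and at 1711, 1691, 2222 and 1575 CPM at 3 h (4.06 ± 0.11). The mitochondrial folate enzyme Mthfd2, the alanyl-tRNA synthetase Aars and the arginine importer Slc7a1 rose by 2.86 ± 0.09, 2.95 ± 0.16 and 2.63 ± 0.13. Chaperones leaned down, with 8 of 27 tested up and 13 down (median -0.26); Dnajb9, a chaperone of the endoplasmic reticulum, fell by 1.60 ± 0.08, while Hspa1a and Hspa1b, near-identical copies whose reads are divided uncertainly, rose by 3.57 ± 0.29 and 2.86 ± 0.28.

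Lipid genes were balanced, 14 up and 14 down of 35 tested (median -0.20). Abca1, the cholesterol exporter, was at 4.32, 5.60, 5.18 and 7.83 CPM at 0 h and at 144, 151, 200.04 and 136 CPM at 3 h (4.79 ± 0.16), the exporter Abcg1 rose by 1.45 ± 0.10 and Mylip, a ubiquitin ligase gene, by 1.46 ± 0.11. Acsl5, which activates fatty acids, rose by 2.88 ± 0.10, and Cpt1a, which admits them to mitochondria, fell by 1.28 ± 0.12. Among actin cytoskeleton genes 19 of 40 tested rose and 12 fell (median 0.12). Marcksl1 was at 140.2, 146, 149.8 and 153 CPM and then 1753, 1617, 1633 and 1481 CPM (3.46 ± 0.07) and its relative Marcks rose by 2.38 ± 0.09, while the actin-severing protein gene Gsn fell by 1.16 ± 0.06. Of 38 tested ribosome biogenesis genes 7 rose and 12 fell (median -0.14), and the share fallen, 31.6%, is near the 27.5% of all tested genes; Rrp1b fell by 1.60 ± 0.20. Of 11 tested histone genes 4 rose and 3 fell (median 0.047), and the linker histone gene H1f2 fell by 1.63 ± 0.09.

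**Figure D5:**
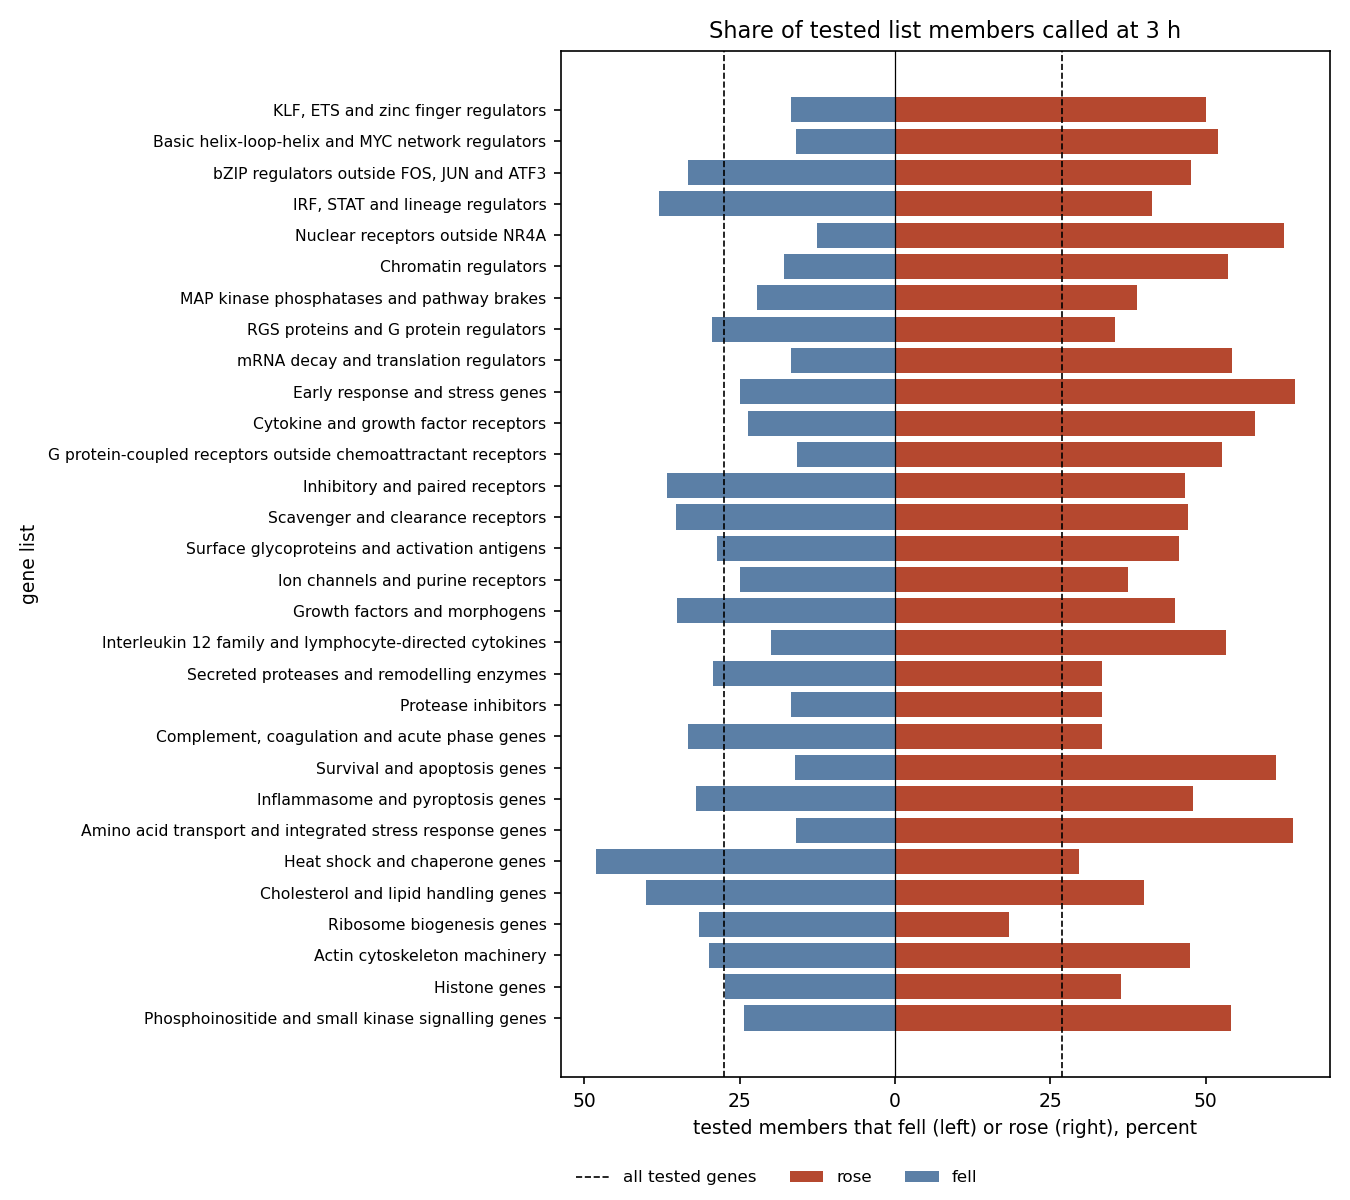
Share of tested members that rose (right of 0) and fell (left of 0) in each of the 30 lists of regulators, feedback genes, receptors, secreted factors and intracellular genes, in percent; dashed lines mark the shares of all tested genes, 26.9% and 27.5%. The amino acid and early response lists reach 64% and 64.3% risen, and chaperones have the highest share fallen at 48.1%.

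The 3 genes switched off by the level rule came from low to moderate levels. Tmcc2 (chr1:132356315-132391281, GRCm38, minus strand), a transmembrane coiled-coil protein gene, was at 19.0, 19.5, 24.5 and 20.4 CPM at 0 h and at 0.408, 0.391, 0.648 and 0.309 CPM at 3 h, a change of -5.57 ± 0.28 (adjusted p = 6.03e-10). Pclo (chr5:14514918-14863459, GRCm38, plus strand), which encodes the presynaptic scaffold piccolo, was at 9.28, 10.5, 14.4 and 11.6 and then 0.297, 0.470, 0.173 and 0.232 CPM (-5.26 ± 0.29). Lct, the lactase gene, was at 9.18, 9.05, 7.20 and 7.76 CPM at 0 h and at 0.705, 0.978, 0.864 and 0.617 CPM at 3 h (-3.39 ± 0.25). All 3 stayed low at 6 h, with Lct the highest at 0.883 ± 0.385 CPM.

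Kinase genes and interferon-inducible genes were found among the 20 largest falls. Camkk1, a calcium-dependent kinase, was at 7.98, 6.69, 8.30 and 4.63 and then 0.594, 0.470, 0.605 and 0.656 CPM (-3.56 ± 0.23). Dapk2, a death-associated kinase of granulocytes, was at 10.5, 11.2, 10.3 and 10.0 CPM at 0 h and at 1.45, 1.13, 0.821 and 1.51 CPM at 3 h (-3.09 ± 0.18). Of the interferon-inducible genes, Ddx60 went from 129 to 167 CPM at 0 h down to 17.9 to 21.7 CPM at 3 h (-2.90 ± 0.14), Slfn5 from 28.7 to 35.7 CPM at 0 h down to 4.11 to 6.37 CPM at 3 h (-2.65 ± 0.16) and Oas1c fell by 2.82 ± 0.29. Fhdc1, Csmd3, Abcg3 and Tmem229b fell, with changes of -4.64 ± 0.22, -3.38 ± 0.26, -2.95 ± 0.20 and -2.78 ± 0.37.

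Erythroid and platelet markers fell beside these genes. All 11 tested erythroid markers fell, with a median change of -2.13, and their summed level was 119.7 to 317 CPM at 0 h and 23.1 to 62.8 CPM at 3 h. Slc4a1, a gene of the red cell membrane among the 20 largest falls, fell, with a change of -3.69 ± 0.36. Of 11 tested platelet markers 9 fell, and their sum was 43.7 to 53.7 CPM at 0 h and 13.1 to 18.3 CPM at 3 h. The platelet chemokine gene Ppbp was at 18.0, 11.1, 15.7 and 9.15 CPM at 0 h and at 1.82, 0, 0 and 0 CPM at 3 h, so 1 library held all of it at 3 h. Stromal and endothelial markers summed to 33.1 to 45.6 and then 23.6 to 37.0 CPM, with Cdh5 and Emcn under 0.1 CPM at 0 h, and 2 of 7 tested fell, the collagen gene Col1a2 (-3.65 ± 0.29) and the chemokine gene Cxcl12 (-3.57 ± 0.25), while Vwf, the von Willebrand factor gene, rose by 0.94 ± 0.35 with overlapping groups. The call on Vwf (adjusted p = 0.0362 in edgeR, 0.0146 to 0.145 over its alternatives) was lost with the replicate block, which pairs libraries by number (0.0544), with upper quartile factors (0.0608), with library totals (0.103) and without unstimulated library m2 or m3 or 3 h library m1 or m3, where the change was 0.61 to 0.92. The precursor granule genes Elane, Mpo and Prtn3 fell, with changes of -1.65 ± 0.33, -1.43 ± 0.35 and -1.34 ± 0.30, and 8 of 14 tested proliferation markers fell and 2 rose, with sums of 677 to 845 and 538 to 693 CPM. The part of these cell types in the other falls was not tested.

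Of the remaining marker lists, 1 of 15 tested neutrophil markers rose and 8 fell, 5 of 11 tested monocyte and macrophage markers rose and 6 fell, and 2 and 2 of 9 dendritic cell markers did. The dendritic cell markers summed to 70.5 to 90.2 CPM at 0 h and 319 to 545 CPM at 3 h, of which Itgax, an integrin gene that other myeloid cells also express, held 50.4 to 67.8 and 297 to 523 CPM. T and NK cell markers summed to 15.0 to 18.6 CPM at 0 h and 18.1 to 21.7 CPM at 3 h (3 of 5 tested rose, 1 fell; Trac, Gzma, Klrb1c and Ncr1 were under 0.1 CPM at 0 h). Eosinophil, basophil and mast cell markers summed to 18.1 to 35.9 and 18.2 to 29.8 CPM (1 of 10 tested rose, 0 fell), and 1 of 7 tested B cell markers rose and 2 fell.

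Stretches before RefSeq starts of some of the risen genes are shown for the letters they hold. In the 250 bases before each annotated start, a kappaB-type motif (GGG, any 2 bases and TTTCC, on either strand) was found in 1.41% of the 32851 promoters in the RefSeq table, and an AP-1-type motif, TGANTCA, in 6.75%. RefSeq promoters matched 295 of the 425 genes that rose at least 4-fold, under 80%, so no share over the risen genes is given. The examples were picked after the values were seen, from risen genes with a match, and capitals mark the match:
Ltb, chr17:35194395-35194454, plus strand, kappaB-type: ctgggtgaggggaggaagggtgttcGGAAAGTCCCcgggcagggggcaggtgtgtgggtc
Casp4, chr9:5308731-5308848, plus strand, kappaB-type: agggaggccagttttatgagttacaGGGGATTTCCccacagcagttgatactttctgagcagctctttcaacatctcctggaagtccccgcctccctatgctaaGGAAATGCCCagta
Tlr9, chr9:106222515-106222571, plus strand, AP-1-type: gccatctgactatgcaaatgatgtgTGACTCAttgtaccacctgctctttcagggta
Met, chr6:17463878-17463934, plus strand, AP-1-type: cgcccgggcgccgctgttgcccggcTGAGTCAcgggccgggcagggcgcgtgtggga
Prdm1, chr10:44458765-44458821, minus strand, AP-1-type: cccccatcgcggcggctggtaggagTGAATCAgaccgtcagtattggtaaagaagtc
Fas, chr19:34290423-34290479, plus strand, AP-1-type: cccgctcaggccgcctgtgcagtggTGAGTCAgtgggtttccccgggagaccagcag
The build is GRCm38.p6. These RefSeq starts can differ from the GENCODE positions used elsewhere. The Met and Prdm1 stretches lie inside the GENCODE spans of their genes, and those of Ltb and Casp4 run past the GENCODE starts. The match in Met overlaps a further searched motif of the antioxidant response type, TGACNNNGC, and the others overlap none of the motifs searched, which also were the CRE TGACGTCA, an ISRE-type motif (GAAA, any 2 bases and GAAA) and the E-box CACGTG. A match describes letters, not binding.

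The early state did not last for every gene. From 3 h to 6 h the level of Nab2 went from 67.6 ± 7.86 to 42.8 ± 10.9 CPM, that of Met from 29.5 ± 3.79 to 11.5 ± 2.28 CPM, and that of Csf1 from 259.9 ± 48.6 to 92.8 ± 12.1 CPM. Adora2a stood at 11.6 ± 0.827 CPM at 6 h, and Gadd45b at 607 ± 109.7 CPM. Bax, Cstb and Atf5 were higher at 6 h than at 3 h by their means, at 92.7 ± 18.0, 181 ± 52.7 and 73.7 ± 12.6 CPM. These 6 h levels are given as values, without a test.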

How the data were processed

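RNA was read as bulk libraries from mRNA enriched with oligo(dT) beads, per the labels' protocols. The authors deposited estimated counts for 46264 gene symbols: expected counts from TPM scaled by transcript length, per the table's name. Kallisto 0.46.1 and GRCm38 are named in the submitters' processing notes. How transcripts were summed to symbols and strand handling are not given in the sources used here. The groups reported here came from the titles. Counts were rounded to whole numbers. The 12 Ics libraries (0 h, 3 h and 6 h, 4 each) shared 1 fit in edgeR 4.0.16 (R 4.3.3): TMM factors, the default expression filter (minimum count 10), the quasi-likelihood F test and Benjamini-Hochberg adjustment over all genes tested, with adjusted p under 0.05 called. The SE is the size of the log2 change divided by the square root of F. CPM uses the TMM factors.

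The members, the 40 gene lists (999 genes, 988 in the table) and the naming rule were chosen with earlier results of these data known. Among genes whose higher group averaged 5 CPM or more, the rule took the top 20 by rise and by fall (predicted genes left out), the 8 tested genes of lowest p in each list, and up to 20 genes by each level rule. Apaf1, Bad, Bak1, Bax, Bbc3, Btc, Casp9, Cd48, Cebpe, Dusp6, Gpr65, Hdac7, Hrh2, Ier2, Il12a, Il13ra1, Irf4, Irf8, Klf2, Lta, Notch1, P2ry1, Plk3, Pycard, S1pr1, S1pr2, Tsc22d3, Vwf and Zc3h12d were named after their values were seen. Some genes that the rule takes are not reported here. Positions are those of GENCODE vM21 on GRCm38.

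Same-numbered libraries deviated together after removal of group means, with correlations of 0.242, 0.208, 0.160 and 0.140 for numbers 1 to 4, each above every other number. The labels do not say what m1 to m4 stand for. The reported fit held the time group alone, so its p-values and SE ignore this pairing. Only the replicate block, an alternative, took the numbers to pair the libraries. Of 12 pairs of libraries within a group, 0 held identical values. On simulated counts for this comparison with 14688 genes tested, 70% of genes changed 1.5-fold, 86% changed 2-fold and all of 50 changed 4-fold were recovered. The simulation changed 50 genes at each fold, as many up as down, whereas 54.4% of genes were called in the data. It therefore does not test the scaling under so broad a change. Alternatives were DESeq2 1.42.0, limma 3.58.1 (voom), other scalings, no filter, the 0 h and 3 h libraries alone, a replicate block, a stricter limit, other limits of the level rule and leaving out each of the 8 libraries. Every value column of the table was matched to a sample.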

Additional observations from a re-analysis of the deposited data

Results flagged for a closer look

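Most genes named above were examined at each time, in 372 combinations of a gene and a time. In 22 of them a single library stood apart from the other 3 of its group. There its gap to the nearest library, as a share of the group's range, passed Dixon's 95% critical value. Chance alone gives about 1 in 20. In unstimulated library m1, this was so for Birc5 at 28.0 CPM against 20.7 to 21.6 CPM and Slc7a11 at 95.8 CPM against 111 to 113 CPM in the others. In unstimulated library m2, this was so for Klf10 at 23.5 CPM against 29.0 to 30.1 CPM and Oas1c at 8.20 CPM against 8.80 to 8.89 CPM in the others. In unstimulated library m3, this was so for Cd9 at 525 CPM against 488 to 493 CPM and Met at 0.755 CPM against 0.473 to 0.512 CPM in the others. In unstimulated library m4, this was so for Marcks at 247 CPM against 191 to 199 CPM and Zbtb16 at 10.4 CPM against 8.27 to 8.54 CPM in the others. In 3 h library m1, this was so for Cd48 at 0.705 CPM against 0.475 to 0.509 CPM, Dusp4 at 9.13 CPM against 7.87 to 8.04 CPM and Hspa1a at 14.4 CPM against 7.55 to 8.30 CPM in the others. The same library stood apart for Rgs18 at 64.2 CPM against 68.8 to 69.5 CPM. In 3 h library m3, this was so for Csf1 at 332 CPM against 227 to 242 CPM, Ifnar1 at 283 CPM against 262 to 265 CPM and Kdm6b at 1143 CPM against 949 to 977 CPM in the others. The same library stood apart for Rbpj at 259 CPM against 203 to 208 CPM and Rc3h2 at 229 CPM against 184 to 187 CPM. In 3 h library m4, this was so for Aars at 74.4 CPM against 101 to 103 CPM, Il12a at 2.12 CPM against 4.66 to 4.82 CPM and Tgfb1 at 168 CPM against 203 to 206 CPM in the others. Ppbp was at 1.82 CPM in 3 h library m1 and at 0 in the other 3. Mir155hg was at 0 in unstimulated library m1 and at 0.0683 to 0.0735 CPM, that is 2 counts, in each of the others. No cause of these values was tested.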

How the results depend on the processing

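In all, 19 settings besides the reported one were run, each on the results it bears on: the other limits of the level rule on the genes switched on or off alone, and the other tests, no filter, the replicate block and the stricter adjusted p on tested changes alone. The counts of genes that rose, fell or changed at least 2-fold stayed within 1.5 times of the reported ones, except that with library totals alone 6351 genes fell, 2310 of them at least 2-fold; the median of all genes shifts down with that scaling. The level rule was less stable. Genes switched off numbered 6 with library totals, 5 with upper quartile factors, 17 with a low limit of 2 CPM and 1 with a high limit of 10 CPM, and genes switched on numbered 56 and 14 with these limits. Leaving out each of the 8 libraries gave 3823 to 3961 risen and 3790 to 3958 fallen genes, 1324 to 1410 and 1379 to 1521 at least 2-fold, 28 to 31 switched on and 3 to 5 switched off, 5 without unstimulated library m4. Of the 356 genes under the naming rule or named besides it, 355 kept their side of the threshold and direction with DESeq2, which gave Ighm no adjusted p, 339 with library totals and 348 with upper quartile factors. With library totals, Slpi and Stfa2l1 turned to -0.026 and -0.0024. The replicate block, which uses the pairing by number, called 4080 rises and 4217 falls and changed 2 of these 356 calls, Vwf, given above, and Ighm. Ighm, at -0.62 without a call, was at -0.72 (adjusted p = 1.98e-05 in edgeR, 1.98e-05 to 0.856 over its alternatives) with the block, and at -1.56 (adjusted p = 0.0318 in edgeR) without 3 h library m2. Il27, not called, passed with RLE factors (adjusted p = 0.0487 in edgeR), with limma voom (0.0466) and without unstimulated library m1 (0.0475), over a range of 0.0466 to 0.706 across its alternatives. Genes with few counts at 0 h, Mir155hg among them, have folds limited by depth.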

Other observations

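Long non-coding genes took part with fewer calls than protein-coding ones. By GENCODE type, 356 of 1898 tested long non-coding genes rose (18.8%) and 447 fell (23.6%), against 29.4% and 28.5% of 11889 protein-coding genes; levels differ between the types and no test was made. The 4 genes below were picked with their values in view. Mir17hg, the host of the miR-17 to miR-92 cluster, changed by 1.17 ± 0.13 on the log2 scale, from a mean of 3.34 to 7.53 CPM, and Mir22hg, the host of miR-22, by 1.22 ± 0.13, from 171 to 398 CPM. Mature microRNAs were not measured. Among the falls of this type, Gm43112 changed by -4.60 ± 0.16, from 27.4 to 1.13 CPM, and Gm16894 by -4.30 ± 0.17, from 24.4 to 1.24 CPM. All 4 passed in edgeR at an adjusted p under 0.05. Gm16894 is typed as antisense, and reads of genes that overlap on opposite strands cannot be told apart where strand use in counting is unknown. Gm43112 is typed as sense intronic, on the strand of its host gene, so strand would not part its reads from unspliced host reads.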
